A study of Mus musculus with 8 samples.

Results

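Genes by which a stressed heart is commonly recognised were higher in hearts of ARE-/- mice than in WT hearts, with a single exception among those examined. The genes were Nppa, Nppb, Ankrd1, Rcan1, Gdf15, Mthfd2, Tnc and Il1rl1. They were picked by name from the authors' deposited gene table, and all 8 were among its 4820 genes. The study sequenced total RNA of hearts from 4 WT and 4 ARE-/- male mice of strain C57B6/J, and mice of both groups were aged 20 to 25 weeks. ARE is not spelled out in the labels and was taken to mean the AU-rich element that shortens the life of the Ifng transcript, without which mice would make interferon gamma for longer. The design names 4 animals in each group, so the p-values treat every library as 1 mouse and measure the spread between libraries. Whole hearts mix many cell types, so fewer cells of a type and less RNA per cell cannot be told apart.

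Ventricular muscle under load or injury returns to transcripts of the developing heart, among them the natriuretic peptides and the stretch-induced repressor Ankrd1. Calcium that activates the phosphatase calcineurin raises its inhibitor Rcan1. Failing mitochondria or a shortage of amino acids start the integrated stress response, which slows translation and raises the secreted factor Gdf15 and the folate enzyme Mthfd2. Injured tissue lays down tenascin C, made from Tnc. Il1rl1 encodes ST2, the receptor by which mast cells, some lymphocytes and endothelium sense interleukin 33 (IL-33), a protein released from damaged cells.

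Libraries held 13416171 to 19432098 reads, and the gene read as targeted went with the labels: Ifng had 0, 3, 0 and 1 reads in WT replicates 1 to 4 and 103, 37, 27 and 61 in ARE-/- replicates 1 to 4. ARE-/- replicate 1 and, less far, WT replicate 3 stood apart from their groups. Over 3171 well-covered listed genes, the median chi-square between libraries of a pair was 1.20 to 1.50 among ARE-/- replicates 2, 3 and 4 and 1.07 to 1.32 among WT replicates 1, 2 and 4. Counting noise alone gives 0.455, so these close libraries differed by more than that and were counted separately. Whether the close libraries are separate animals could not be checked beyond the labels, and if some are not, n = 4 and the p-values overstate the replication. Pairs with ARE-/- replicate 1 reached 27.2 to 31.2 and pairs with WT replicate 3 reached 4.47 to 5.24. Values of the 8 genes and medians of the pathway lists are therefore also given without ARE-/- replicate 1. Leaving it out turned the direction of no pathway list gene and shifted their log2 differences by -0.37 to 0.41. In an edgeR refit on sums of the close libraries, 2 against 2 samples, Gdf15 and Tnc stayed past the threshold and the other 6 genes did not.

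Only genes that passed the authors' DESeq2 test (adjusted p under 0.05) are in the deposited table, 24.6% of the 19606 genes tested. Risen genes were 12.8% of those tested and fallen genes 11.8%. Of the 8 stress genes 7 rose and 1, Il1rl1, fell. They were chosen with results of these data known, so these counts describe them and are no test of the group. In normalised counts, every ARE-/- value lay to one side of every WT value in 7 of the 8, as in 81.5% of all listed genes, and Nppa was the exception. In FPKM the groups of Nppa did not overlap and those of Il1rl1 did, since ARE-/- replicate 1 (0.168 FPKM) was above WT replicate 1 (0.158 FPKM). Levels below are normalised counts, which are reads divided by the authors' size factor of each library. Log2 differences are ARE-/- minus WT, computed on log2(normalised count + 0.5), which draws low genes towards 0.

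**Figure D1:**
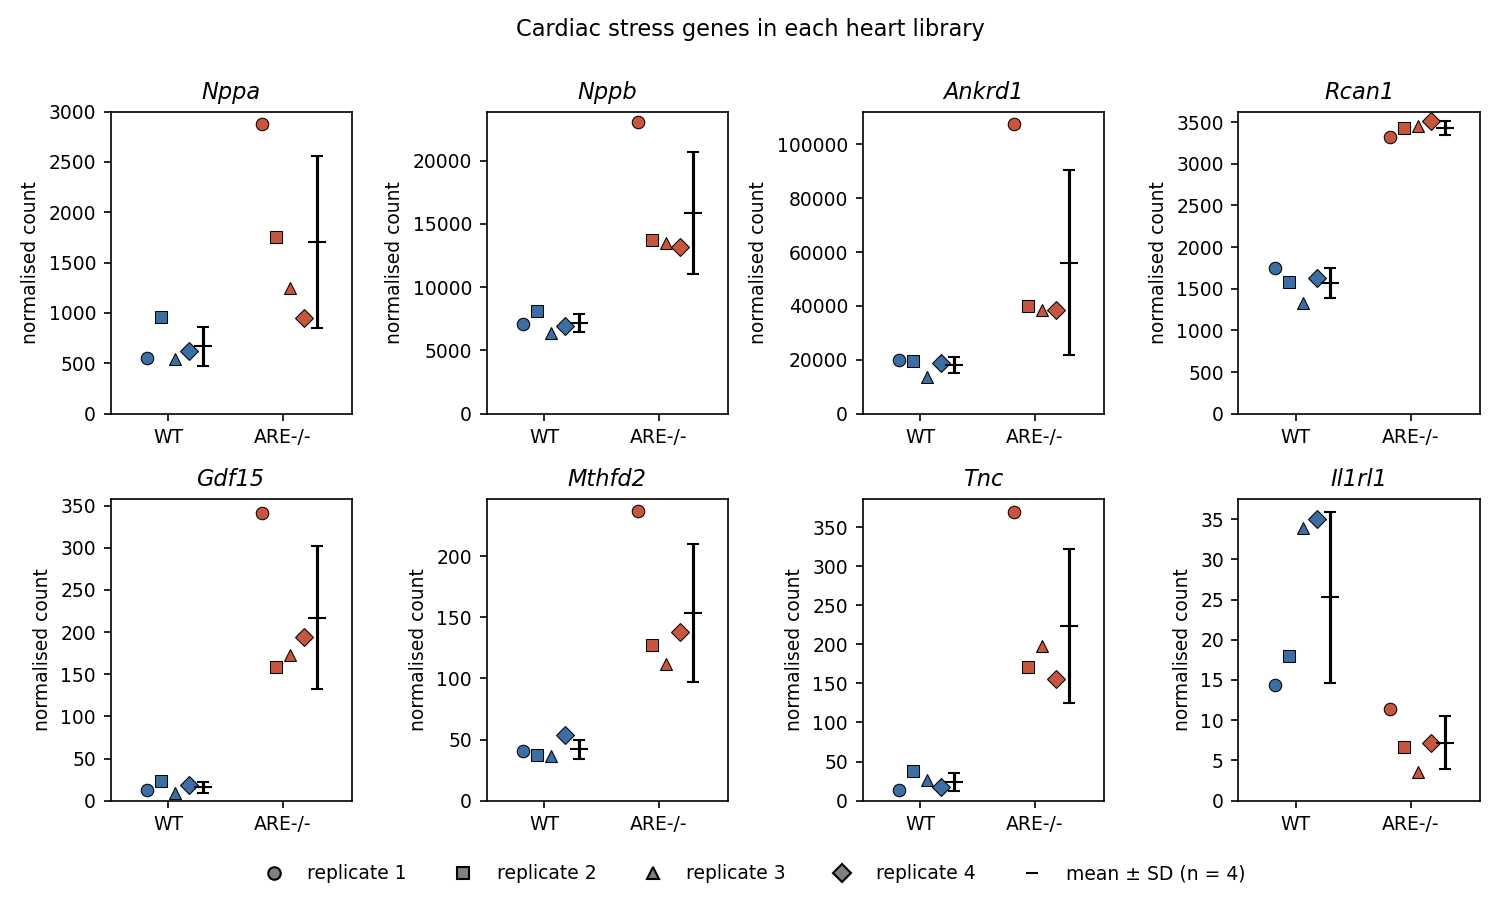
Normalised counts (vertical axes, linear, from 0) of the 8 genes in each of 4 WT and 4 ARE-/- hearts; symbols mark the replicate number and bars the mean ± SD of 4 libraries. ARE-/- replicate 1 is the highest library for 6 of the 7 risen genes, and Nppa is the only gene whose groups overlap.

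The natriuretic peptide genes lie next to each other on chromosome 4 and both rose. Nppa encodes atrial natriuretic peptide and Nppb brain natriuretic peptide, hormones that promote salt loss and widen vessels. Nppb (ENSMUSG00000029019) occupies bases 147985788 to 147987205 of the forward strand in mm10, and Nppa (ENSMUSG00000041616) starts 13517 bases further on and spans 148000722 to 148002079 on the same strand. The 250 bases before their starts are shown since both genes moved together and both are classical targets of the heart factor GATA4, with the GATA motifs AGATAA and TGATAA and the TEAD motif GGAATG in capitals where found on either strand. The RefSeq start of Nppb lies inside the span given by the deposited table. All promoters here are from RefSeq, build GRCm38.p6.
Nppb, chr4:147985650-147985899, forward strand: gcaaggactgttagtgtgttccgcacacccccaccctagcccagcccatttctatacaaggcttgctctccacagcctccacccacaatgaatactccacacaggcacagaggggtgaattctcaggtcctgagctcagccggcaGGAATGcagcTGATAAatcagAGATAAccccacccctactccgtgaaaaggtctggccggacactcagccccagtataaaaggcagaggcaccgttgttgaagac
Nppa, chr4:148000472-148000721, forward strand: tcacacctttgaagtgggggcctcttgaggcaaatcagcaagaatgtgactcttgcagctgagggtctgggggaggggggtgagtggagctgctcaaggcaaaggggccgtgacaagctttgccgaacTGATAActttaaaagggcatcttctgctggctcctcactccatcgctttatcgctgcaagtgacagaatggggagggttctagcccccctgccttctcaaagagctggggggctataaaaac
In Nppb the TEAD motif and both GATA motifs stood in a row that began 105, 95 and 84 bases before the start. Nppa held a single TGATAA, 122 bases before its start. Over all 32851 promoters of the RefSeq table, windows of this length held AGATAA in 9.99%, TGATAA in 7.94% and GGAATG in 12.6%. The motifs are a description of these letters, and no binding was measured.

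Nppb was among the most abundant listed transcripts and every ARE-/- heart had more of it than any WT heart. Its normalised counts were 7083, 8099.6, 6402 and 6959 in WT replicates 1 to 4 and 23058, 13722, 13514 and 13184 in ARE-/- replicates 1 to 4. The first ARE-/- library stood 1.71-fold above the mean of the other 3, which lay within a coefficient of variation of 2.01%. The mean went from 7136 ± 707 to 15869 ± 4797 (SD, n = 4 each). The log2 difference was 1.12 ± 0.21 (SE) with an exact two-sided permutation p of 0.0286, the smallest that 4 against 4 libraries can give. Without ARE-/- replicate 1 it was 0.92 ± 0.072. In the authors' deposited table the DESeq2 log2 fold change is 1.12, adjusted p = 1.4e-06.

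Nppa rose as well by the authors' test, but its groups overlapped. WT replicates 1 to 4 had normalised counts of 553, 956, 545 and 622, and ARE-/- replicates 1 to 4 had 2881, 1758, 1244 and 945. The lowest ARE-/- heart, replicate 4, was just under the highest WT heart, replicate 2. Means were 669 ± 195 and 1707 ± 852 (SD, n = 4 each), and the log2 difference of 1.26 ± 0.40 (SE) had an exact permutation p of 0.0571. It was 0.97 ± 0.32 without ARE-/- replicate 1. In the authors' deposited table it is 1.27 by DESeq2, adjusted p = 5.9e-04. In edgeR refits of the listed genes the adjusted p was 0.0532 without WT replicate 1, 0.0502 without WT replicate 4 and 0.165 with offsets that take out a trend with transcript GC content.

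Per length, Nppb exceeded Nppa in every heart. FPKM, which corrects counts for the length of a gene and the depth of a library, averaged 539 ± 41.9 for Nppb and 45.5 ± 12.3 for Nppa in WT hearts (SD, n = 4). In ARE-/- hearts they averaged 1414 ± 594 and 139 ± 84.9. The Nppb to Nppa ratio of FPKM was 12.2 ± 2.05 in WT hearts and 11.2 ± 3.20 in ARE-/- hearts (SD, n = 4). A difference in this ratio was not detected (exact permutation p = 0.571). Nppa is also a marker of atrial muscle, so atrial markers were read beside it. Of 7 such genes 5 were listed, and 4 of them fell, among them the atrial light chains Myl4 (-0.77 ± 0.07, SE) and Myl7 (-0.97 ± 0.11). The fifth, the pacemaker channel Hcn4, was called risen although ARE-/- replicate 1, with 13.9 normalised counts, lay below all WT hearts. Summed over the 5 genes, normalised counts were 13355 to 15595 in WT and 7415 to 9613 in ARE-/- hearts. The part of atrial content in the Nppa result was not tested.

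The 3 listed genes that process or clear natriuretic peptides fell. They were 3 of 9 genes of this system, beside 24.6% listed of all genes tested. Their median log2 difference was -0.75 against 0.44 over all listed genes (-0.92 without ARE-/- replicate 1). In edgeR refits with library totals or with GC offsets 2 of the 3 falls stayed called, and all 3 values stayed below 0. Corin, the protease that cuts the atrial peptide out of its precursor, fell by 0.75 ± 0.12 on the log2 scale (SE). Mme, which encodes the peptide-degrading enzyme neprilysin, fell by 1.27 ± 0.22. Ide, the insulin-degrading enzyme that also cuts natriuretic peptides, fell by 0.72 ± 0.21, with overlapping groups. The receptors Npr1, Npr2 and Npr3 were on the same list and not in the table, so they have no call here.

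Ankrd1 had the highest mean FPKM of the 8 genes in both groups, with a mean ± SD range that overlapped that of Nppb. It encodes a nuclear and sarcomeric repeat protein (CARP) that heart muscle makes in response to stretch. The gene (ENSMUSG00000024803) spans bases 36111965 to 36119844 of chromosome 19 on the reverse strand. Its promoter is shown beside those of the natriuretic peptides since the 3 genes rose together, with the same motifs in capitals.
Ankrd1, chr19:36119845-36120094, reverse strand: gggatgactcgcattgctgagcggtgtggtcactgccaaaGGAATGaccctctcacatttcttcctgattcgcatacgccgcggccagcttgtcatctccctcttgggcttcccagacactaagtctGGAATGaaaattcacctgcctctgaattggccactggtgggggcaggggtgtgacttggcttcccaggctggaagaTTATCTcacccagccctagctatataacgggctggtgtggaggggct
TEAD motifs began 210 and 123 bases before the start and a GATA motif, AGATAA read on the other strand, 47 bases before it. Normalised counts of Ankrd1 were 19789.8, 19674, 13565 and 18657 in WT replicates 1 to 4 and 107559.8, 40122, 38541 and 38360.3 in ARE-/- replicates 1 to 4. All ARE-/- hearts lay above all WT hearts, and replicate 1 was 2.76-fold above the mean of the other 3 ARE-/- hearts. Those other 3 had a coefficient of variation of 2.48%. The mean went from 17922 ± 2949 to 56146 ± 34285 (SD, n = 4 each). The log2 difference was 1.50 ± 0.39 (SE, exact permutation p = 0.0286). Leaving out ARE-/- replicate 1 brought the ratio of means from 3.13 to 2.18 and the log2 difference to 1.14 ± 0.13. The value in the authors' deposited table is 1.54, adjusted p = 1.7e-05 (DESeq2). Per length, Ankrd1 averaged 599 FPKM in WT and 2263 FPKM in ARE-/- hearts, rank 57 and rank 21 of the 4820 listed genes.

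Other genes of the fetal and stretch programme moved in both directions. Of 20 on that list, which leaves out the 8 stress genes, 10 were listed, 8 risen and 2 fallen, with a median log2 difference of 0.75 against 0.44 over all listed genes (0.84 without ARE-/- replicate 1). Acta1, the skeletal actin that returns in loaded heart muscle, rose by 1.68 ± 0.24 (SE), from 1997 ± 485 to 6273 ± 1080 normalised counts (SD, n = 4 each). Myot, a Z-disc protein, fell by 1.77 ± 0.092 on the log2 scale, and Csrp3, a Z-disc sensor of stretch, fell by 0.99 ± 0.13. The slow myosin Myh7, named after its values were seen, rose by 0.68 ± 0.18. In edgeR refits 6 of the 8 remained called risen with the authors' size factors and 2 with trimmed-mean (TMM) scaling or with GC offsets. In a DESeq2 refit with its own size factors 1 did. TMM factors, GC offsets and DESeq2's size factors were each estimated from the listed genes alone. All 8 kept a value above 0 in these refits. Markers of ventricular muscle fell at the same time: of 12, 7 were listed and all 7 fell, and their summed normalised counts were 455948 to 653573 in WT and 223479 to 333899 in ARE-/- hearts.

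**Figure D2:**
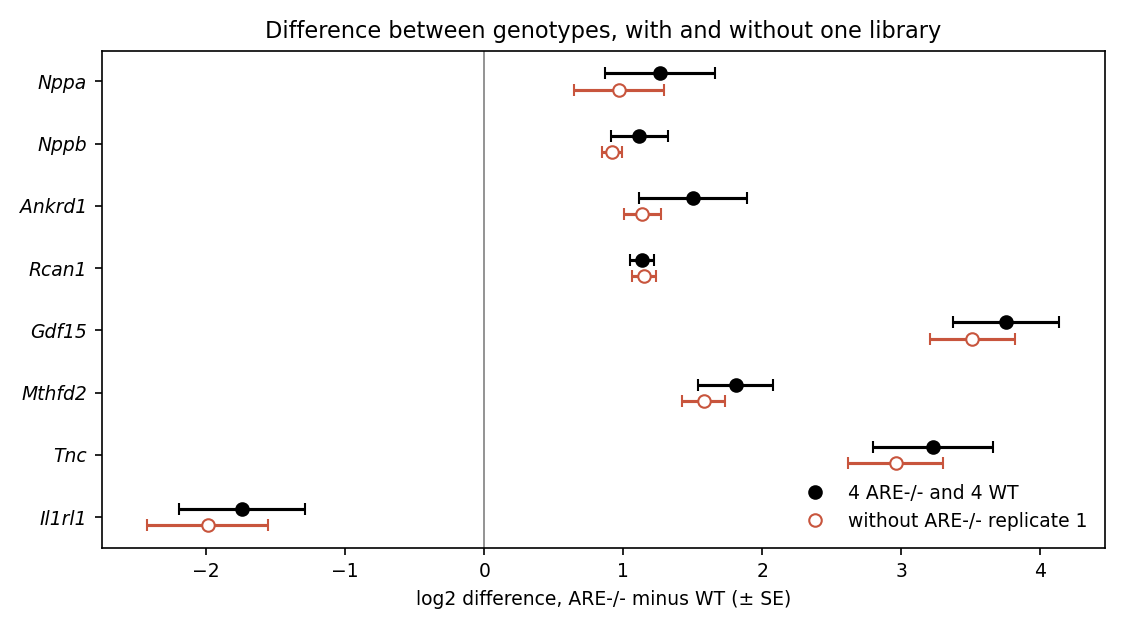
Log2 difference between ARE-/- and WT hearts (horizontal axis) of the 8 genes, with all 4 hearts of each group (filled) and without ARE-/- replicate 1 (open); bars are ± SE. The 7 risen genes stay above 0 and Il1rl1 below 0 in both, and Rcan1 hardly moves, from 1.14 to 1.15.

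Rcan1 varied least of the 8 genes among ARE-/- hearts, with a coefficient of variation of 2.37%, against 11.4% in WT hearts. It encodes regulator of calcineurin 1, an inhibitor of calcineurin that is itself induced through NFAT, the transcription factor calcineurin activates. The gene (ENSMUSG00000022951) spans bases 92391953 to 92466146 of chromosome 16 on the reverse strand, and RefSeq gives it an outer and an inner start. The window before the inner start is shown since that start is the one known to respond to calcineurin. Capitals mark the core NFAT motif GGAAA on either strand.
Rcan1 inner start, chr16:92400079-92400328, reverse strand: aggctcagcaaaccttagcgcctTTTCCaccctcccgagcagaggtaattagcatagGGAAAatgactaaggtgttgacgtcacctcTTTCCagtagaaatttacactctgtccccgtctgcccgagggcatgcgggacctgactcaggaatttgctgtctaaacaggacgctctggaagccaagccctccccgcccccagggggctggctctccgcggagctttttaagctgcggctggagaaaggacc
The motif began 227, 193 and 163 bases before the inner start and was not found in the window of the outer start. It is short and occurs in 55.6% of all promoters. Reads were deposited per gene, so use of the 2 starts cannot be told apart. Normalised counts were 1754, 1576, 1325 and 1623 in WT replicates 1 to 4 and 3322, 3434, 3448 and 3518 in ARE-/- replicates 1 to 4. Every ARE-/- heart lay at least 1.89-fold above the highest WT heart, and replicate 1 was here the lowest of its group. Means were 1569 ± 179 and 3431 ± 81.3 (SD, n = 4 each), and the log2 difference was 1.14 ± 0.087 (SE, exact permutation p = 0.0286). It was 1.15 ± 0.086 without ARE-/- replicate 1, and 1.12 in the authors' deposited table, adjusted p = 1.1e-16 (DESeq2).

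Other genes of the calcineurin system moved in both directions. Of 24 such genes 10 were listed, 4 risen and 6 fallen, with a median log2 difference of -0.48 against 0.44 over all listed genes (-0.51 without ARE-/- replicate 1). Akap5, a scaffold that holds calcineurin near calcium channels, fell by 3.27 ± 0.47 on the log2 scale (SE), from 80.5 ± 22.2 to 8.79 ± 5.80 normalised counts (SD, n = 4 each). Rcan2, the paralogue of Rcan1, fell by 0.68 ± 0.10, and Gsk3b, a kinase that returns NFAT to the cytoplasm, fell by 0.51 ± 0.077. No catalytic subunit (Ppp3ca, Ppp3cb, Ppp3cc) and no NFAT gene of the list was in the table. The balance depended on the scaling: with library totals 4 were called risen and 2 fallen (edgeR). With GC offsets the calls were 0 risen and 1 fallen, 7 genes lay above 0 and 3 below, and 3 genes, Gsk3b among them, changed sign. Rcan2 and Akap5 did not change sign under any scaling tried.

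Gdf15 had the largest rise of the 8. It encodes growth differentiation factor 15, a secreted member of the TGF-β family that lowers appetite through a receptor in the brainstem and is raised by the integrated stress response and by p53. The gene (ENSMUSG00000038508) spans bases 70629393 to 70632456 of chromosome 8 on the reverse strand. WT replicates 1 to 4 had 13.2, 22.7, 8.71 and 18.5 normalised counts, and ARE-/- replicates 1 to 4 had 342, 159, 173 and 195. The lowest ARE-/- heart was 6.99-fold above the highest WT heart. The mean went from 15.8 ± 6.12 to 217 ± 84.4 (SD, n = 4 each), and the log2 difference was 3.75 ± 0.38 (SE, exact permutation p = 0.0286). Without ARE-/- replicate 1, whose value was 1.95-fold the mean of the other 3, it was 3.51 ± 0.30. In the authors' deposited table the DESeq2 value is 3.51, adjusted p = 5.3e-23, and Gdf15 held rank 100 among all listed genes ordered by log2 difference. Even so it stayed a low transcript, at 0.602 FPKM in WT and 9.83 FPKM in ARE-/- hearts on average.

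Mthfd2, the mitochondrial folate enzyme that is low in most adult tissues, rose in the same hearts. The gene (ENSMUSG00000005667) spans bases 83305691 to 83317606 of chromosome 6 on the reverse strand. Its normalised counts were 40.8, 37.1, 36.8 and 53.4 in WT replicates 1 to 4 and 237, 128, 112 and 138 in ARE-/- replicates 1 to 4. The groups lay 2.09-fold apart at their closest, and ARE-/- replicate 1 was again the highest. Means were 42.0 ± 7.82 and 153.5 ± 56.8 (SD, n = 4 each), and the log2 difference was 1.81 ± 0.27 (SE, exact permutation p = 0.0286). Without ARE-/- replicate 1 the difference was 1.58 ± 0.15, and it is 1.77 in the authors' deposited table, adjusted p = 3.0e-08 (DESeq2). The ATF4 composite motif TGATGNAA, which occurs in 3.45% of all promoters, was not among the letters of the Gdf15 or Mthfd2 windows, which says nothing about ATF4.

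Of the genes of the integrated stress response that were in the table, 1 fell and the others rose. Their sum and median did not follow Gdf15 and Mthfd2 heart by heart. Of 32 on the list, which leaves these members out, 15 were in the table, 14 risen and 1 fallen, with a median log2 difference of 0.83 against 0.44 over all listed genes (0.91 without ARE-/- replicate 1). Summed over the 15, normalised counts were 8660 to 8918 in WT hearts and 8758 to 12484 in ARE-/- hearts. ARE-/- replicate 1, where Gdf15 and Mthfd2 were highest, gave the lowest ARE-/- sum, within the WT range. Abundant genes weigh most in this sum. The fallen gene Vldlr, the most abundant of the 15 in WT hearts, averaged 3403 there and 1804 in ARE-/- hearts. By the list median, ARE-/- replicate 1 was 0.33 above the WT mean on the log2 scale. Slc3a2, the heavy chain of amino acid exchangers, rose by 1.02 ± 0.14 (SE), from 401 ± 35.8 to 822 ± 136 normalised counts (SD, n = 4 each). Sesn2, a stress-induced leucine sensor, rose by 1.37 ± 0.27. The lipoprotein receptor Vldlr was the 1 fallen gene, by 0.92 ± 0.051 on the log2 scale. Named after their values were seen, the stress factor Ddit3 (CHOP) rose by 0.93 ± 0.20, the asparagine synthetase gene Asns by 0.99 ± 0.25 and Atf3 by 0.78 ± 0.25. Without ARE-/- replicate 1 these were 0.73, 0.88 and 0.65, so that heart lay above the mean of the other ARE-/- hearts for them. Every other listed gene of the list had a higher log2 difference without that heart. Atf4, whose protein is controlled by translation, was not in the table. The risen count was 13 in an edgeR refit with the authors' size factors. It was 9 with TMM, 8 with GC offsets and 5 in a DESeq2 refit, scalings that were estimated from the listed genes alone. With GC offsets Atf5 and Pck2 changed sign.

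Of 9 kinase, phosphatase and relay genes that start or end this response 2 were listed, close to the share of all genes tested: Oma1, the mitochondrial protease that relays mitochondrial stress to the response, fell by 0.67 ± 0.087 (SE) and Ppp1r15b, a phosphatase subunit that ends it, rose by 0.43 ± 0.089. Folate enzymes other than Mthfd2 split, with 7 of 22 listed, 4 risen and 3 fallen, and a median of 0.67 (0.85 without ARE-/- replicate 1). Aldh1l1, the cytosolic enzyme that oxidises formyl-folate, rose by 2.41 ± 0.37, Atic of purine synthesis rose by 0.72 ± 0.18 and Amt of glycine cleavage fell by 1.46 ± 0.16 on the log2 scale. Aldh1l2, the mitochondrial counterpart of Aldh1l1 named after its values were seen, fell by 1.02 ± 0.23.

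Of 18 genes of p53, the other known inducer of Gdf15, and its targets, 9 were in the table, 7 risen and 2 fallen, with a median of 0.80 (0.86 without ARE-/- replicate 1). The cell cycle inhibitor Cdkn1a rose by 1.82 ± 0.038 (SE), from 323 ± 14.4 to 1145 ± 31.3 normalised counts (SD, n = 4 each). Phlda3, an inhibitor of Akt signalling, rose by 1.45 ± 0.23 and Trp53 itself by 0.97 ± 0.11. The p53 targets Ccng1 and Mdm2, named after their values were seen, were the 2 that fell. Within the TGF-β family, to which Gdf15 belongs, 9 of 22 genes were listed, 6 risen and 3 fallen, with a median of 0.84 (0.65 without ARE-/- replicate 1). Tgfb1 rose by 1.48 ± 0.29, Tgfb3 by 0.72 ± 0.039 and the receptor gene Tgfbr2 by 0.85 ± 0.13. Ret, the signalling partner of the Gdf15 receptor, also named after its values were seen, fell by 1.21 ± 0.39 on the log2 scale, and the receptor gene Gfral was not in the table.

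**Figure D3:**
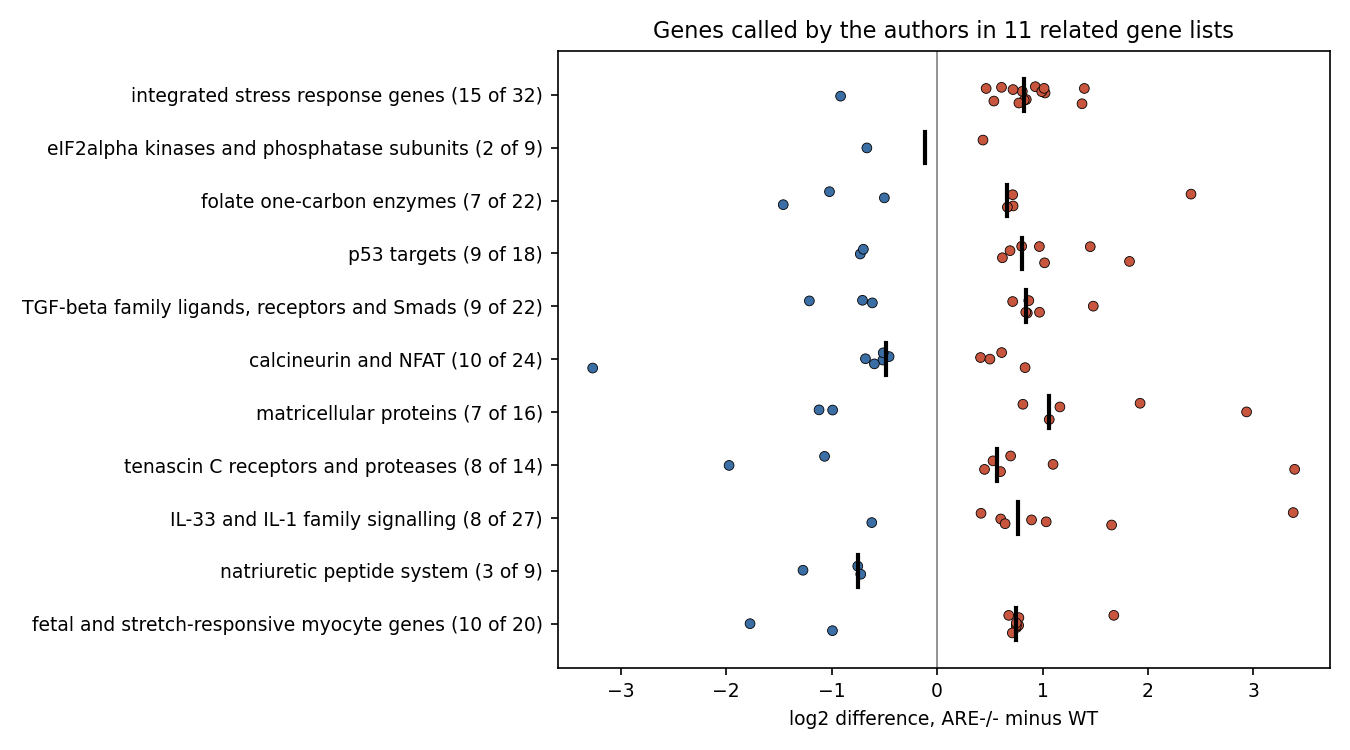
Log2 difference between ARE-/- and WT hearts (horizontal axis) of every gene of 11 related lists that the deposited table contains; red points rose, blue points fell, black bars are list medians, and the label gives listed genes of all genes on a list. Rises outnumber falls in the integrated stress response list (14 and 1) and falls outnumber rises in the natriuretic peptide list (3 and 0).

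ARE-/- replicate 1, the heart with the most Ifng reads, differed from the other ARE-/- hearts in most stress genes and in some of the lists. It was the highest of the ARE-/- hearts for 6 of the 7 risen stress genes, while it was the highest for 32.0% of all 1856 risen genes with a mean of 100 or more. The lists did not share one order: by its median, ARE-/- replicate 1 was the lowest ARE-/- heart in 5 of the 11 pathway lists, the highest in 3 and between the others in 3. The median log2 value over the WT mean of the integrated stress response list was 0.33 in ARE-/- replicate 1, against 0.99, 0.78 and 0.95 in ARE-/- replicates 2, 3 and 4. For the folate enzymes it was -0.29 against 0.84, 0.89 and 0.80, and for the fetal and stretch list it was -0.20 against 0.83, 0.99 and 0.84. The fetal and stretch list was split: leaving out ARE-/- replicate 1 lowered the log2 difference of Acta1 from 1.68 to 1.56 and of Myh7 from 0.68 to 0.51. Values of Myc, Atf3 and Csrp3 were lowered too, while those of Cryab, Hspb1, Flnc, Xirp1 and Myot were raised. The same heart had the lowest ventricular markers, with a median of -1.37 against -0.65, -0.69 and -0.74, and the highest macrophage markers, with 3.03 against 2.20, 2.34 and 2.37. Its red cell markers were also apart, with a median of -0.74 against -2.57, -2.50 and -2.55. All 7 red cell markers were listed as fallen, with sums of 730469 to 874543 normalised counts in WT and 116766 to 442267 in ARE-/- hearts. Among the 3 lists highest in that heart were the matricellular genes, with 1.82 against 0.88, 0.83 and 0.92, and the calcineurin genes, with -0.18 against -0.53, -0.48 and -0.45. The part of its cell makeup in these values was not tested.

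**Figure D4:**
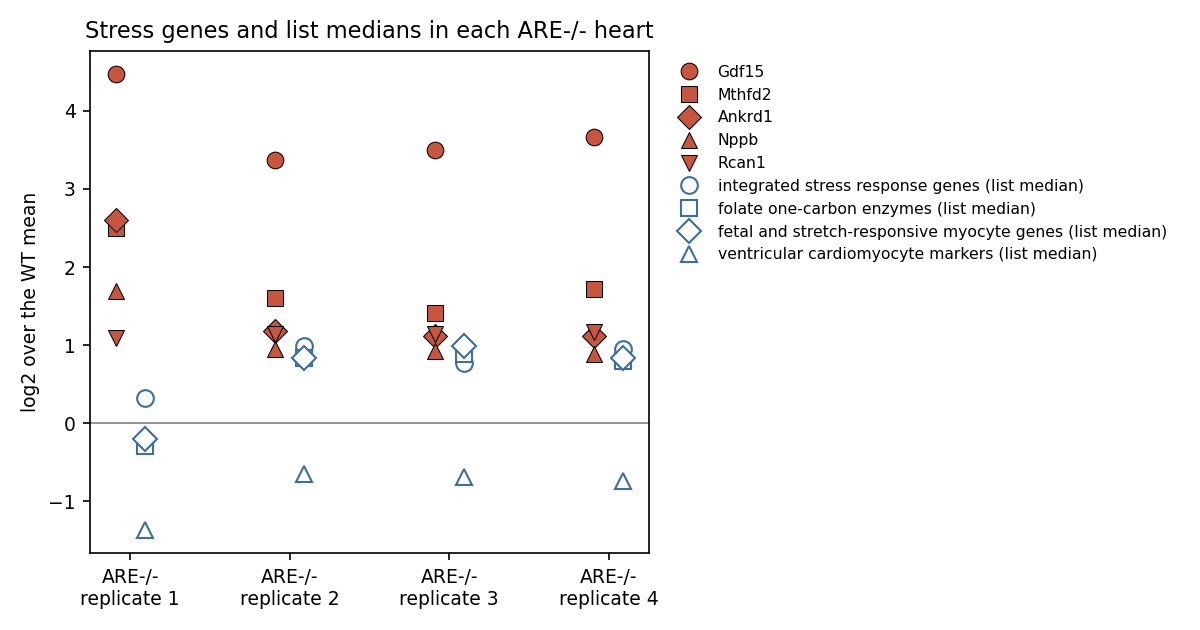
Log2 level over the WT mean (vertical axis) in each ARE-/- heart for 5 stress genes (red) and for the medians of 4 gene lists (blue, open). In replicate 1 Gdf15, Mthfd2, Ankrd1 and Nppb are at their highest while the medians of these 4 lists, chosen after their values were seen, are at their lowest; Rcan1 stays between 1.09 and 1.17.

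Tnc, which encodes tenascin C, was low in WT hearts, with 11 to 32 reads, and had 153 reads or more in every ARE-/- heart. Tenascin C is a matrix glycoprotein of embryos, wounds and inflamed heart, where fibroblasts are a known source. The gene (ENSMUSG00000028364) spans bases 63959785 to 64047015 of chromosome 4 on the reverse strand. Normalised counts were 13.2, 38.3, 26.1 and 17.5 in WT replicates 1 to 4 and 369, 171, 198 and 156 in ARE-/- replicates 1 to 4. The lowest ARE-/- heart was 4.08-fold above the highest WT heart. Means were 23.8 ± 11.1 and 224 ± 98.3 (SD, n = 4 each), and the log2 difference was 3.23 ± 0.43 (SE, exact permutation p = 0.0286), or 2.96 ± 0.34 without ARE-/- replicate 1. The authors' deposited table has 2.97, adjusted p = 2.1e-15 (DESeq2).

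Proteins of the same matricellular kind rose more often than they fell. Of 16 such genes other than Tnc 7 were listed, 5 risen and 2 fallen, with a median of 1.06 against 0.44 over all listed genes (0.89 without ARE-/- replicate 1). Spp1, which encodes osteopontin, a product of macrophages in injured heart, rose by 2.93 ± 0.47 (SE), from 12.6 ± 4.71 to 106 ± 65.8 normalised counts (SD, n = 4 each). Wisp2 and Nov, of the CCN family, rose by 1.92 ± 0.24 and 1.06 ± 0.10. The related tenascin gene Tnxb, named after its values were seen, fell by 1.12 ± 0.19 on the log2 scale. Of 14 receptors and proteases of tenascin C 8 were listed, 6 risen and 2 fallen, with a median of 0.57 (0.60 without ARE-/- replicate 1). The macrophage elastase Mmp12 rose by 3.39 ± 0.46, the proteoglycan Sdc4 rose by 0.70 ± 0.056 and the gelatinase Mmp9 fell by 1.97 ± 0.31 on the log2 scale.

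Some markers of cells that could hold Tnc also moved. Of 10 fibroblast markers 3 were listed and all 3 rose (Tcf21, Col3a1 and Col1a1), with summed normalised counts of 2592 to 3279.9 in WT and 4550.1 to 5554 in ARE-/- hearts. Of 8 myofibroblast markers 2 were listed and both rose, Timp1 by 2.68 ± 0.39 (SE) and Meox1 by 1.56 ± 0.24, with sums of 209 to 243 in WT and 692 to 1656 in ARE-/-. Fibroblast and myofibroblast markers were listed about as often as all genes tested (24.6%), and the unlisted ones have no call here. Of 12 macrophage and monocyte markers 9 were listed and all 9 rose, with sums of 6315 to 10702 in WT and 32487 to 48867 in ARE-/-. The part of these cells in the Tnc result was not tested.

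Il1rl1 was the only one of the 8 genes that fell, and it rests on few reads. The gene (ENSMUSG00000026069) spans bases 40429570 to 40465415 of chromosome 1 on the forward strand, and RefSeq gives it a distal and a proximal start. In mouse the distal start is known from mast cells and other blood cells and the proximal one from fibroblasts. The distal window is shown since mast cell genes fell in the same hearts, with the GATA motifs AGATAA and TGATAA in capitals.
Il1rl1 distal start, chr1:40429320-40429569, forward strand: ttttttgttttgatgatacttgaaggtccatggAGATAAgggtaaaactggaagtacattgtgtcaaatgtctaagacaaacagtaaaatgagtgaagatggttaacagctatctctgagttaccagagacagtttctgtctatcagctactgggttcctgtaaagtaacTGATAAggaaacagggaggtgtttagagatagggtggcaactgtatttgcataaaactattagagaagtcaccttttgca
The motifs began 217 and 80 bases before the distal start, and the window of the proximal start also held an AGATAA, 103 bases before it. Il1rl1 had 12, 15, 35 and 34 reads in WT replicates 1 to 4 and 14, 6, 4 and 9 reads in ARE-/- replicates 1 to 4. As normalised counts these were 14.4, 17.9, 33.9 and 34.9 against 11.4, 6.71, 3.51 and 7.21. WT hearts fell into 2 lower and 2 higher values, and the highest ARE-/- heart, replicate 1, came close to the lowest WT heart. The lowest WT value was 1.26-fold the highest ARE-/- value. Means were 25.3 ± 10.6 and 7.22 ± 3.26 (SD, n = 4 each), and the log2 difference was -1.74 ± 0.45 (SE, exact permutation p = 0.0286), or -1.99 ± 0.44 without ARE-/- replicate 1. In the authors' deposited table the DESeq2 value is -1.55, adjusted p = 0.0041. In edgeR refits the adjusted p was 0.0585 without WT replicate 4 and 0.0676 with GC offsets.

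Mast cell genes fell far more than Il1rl1. Of 10 mast cell and basophil markers 7 were listed, 6 fallen and 1 risen, with a median log2 difference of -3.19, or -3.17 with Tpsab1 at its bound. Mcpt4, a mast cell chymase, had 133, 112, 113 and 127 normalised counts in WT replicates 1 to 4 and 5.72, 6.71, 3.51 and 7.21 in ARE-/- replicates 1 to 4. Tpsb2, a tryptase, had 96.1, 104, 143 and 112 against 1.64, 0, 6.15 and 6.41, and Cpa3, the mast cell carboxypeptidase, fell by 3.17 ± 0.37 on the log2 scale (SE). The chymase Cma1 fell by 4.61 ± 1.01, and the IgE receptor gene Fcer1a, low in both groups, by 2.80 ± 0.76. Tpsab1, another tryptase, had no read in any ARE-/- heart and was at least 7.86-fold lower there, set against a floor of 3 counts over the group. Hdc, the histamine-forming enzyme that other leukocytes can also make, was the exception and rose by 2.08 ± 0.25. It kept the summed list at 217 to 309 normalised counts in ARE-/- against 386 to 543 in WT hearts. Across WT hearts only Tpsab1 of the 7 listed markers had the order of Il1rl1. It had 1.20, 3.59, 4.84 and 11.3 normalised counts in replicates 1 to 4, from 1, 3, 5 and 11 reads. Mcpt4 was highest in WT replicate 1, and Cpa3, Cma1, Tpsb2, Fcer1a and Hdc were highest in WT replicate 3. The part of mast cell number in the Il1rl1 result was not tested.

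Other cells that bear ST2 gave a mixed picture. Of 9 markers of group 2 innate lymphoid cells and regulatory T cells 3 were listed. Klrg1 rose by 2.96 ± 0.54 (SE), Rora fell by 0.94 ± 0.22 on the log2 scale and Ctla4 by 1.46 ± 0.36. T and NK cell markers were read beside Klrg1: of 12, 9 were listed and all 9 rose. Their sums were 160 to 371 normalised counts in WT and 1606 to 2014 in ARE-/- hearts. The part of T and NK cells in the Klrg1 value was not tested. Of 10 endothelial markers 4 were listed and all 4 fell, with sums of 13650.3 to 16868 normalised counts in WT and 10363 to 12274 in ARE-/- hearts. Most listed genes of IL-33 and IL-1 family signalling went the other way. Of 27 such genes 8 were listed, a share near the 24.6% of all genes tested. Of these 8, 7 rose and 1, Traf6, fell, with a median of 0.77 (0.81 without ARE-/- replicate 1). The rises called were 5 with TMM, 5 with GC offsets, where Nfkbia changed sign, and 3 in a DESeq2 refit with its own size factors. Il1rn, the interleukin 1 receptor antagonist, rose by 3.38 ± 0.38, the adaptor gene Myd88 by 1.03 ± 0.063 and Nfkb1 by 0.60 ± 0.086. Neither Il33 nor the co-receptor gene Il1rap was in the table.

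**Figure D5:**
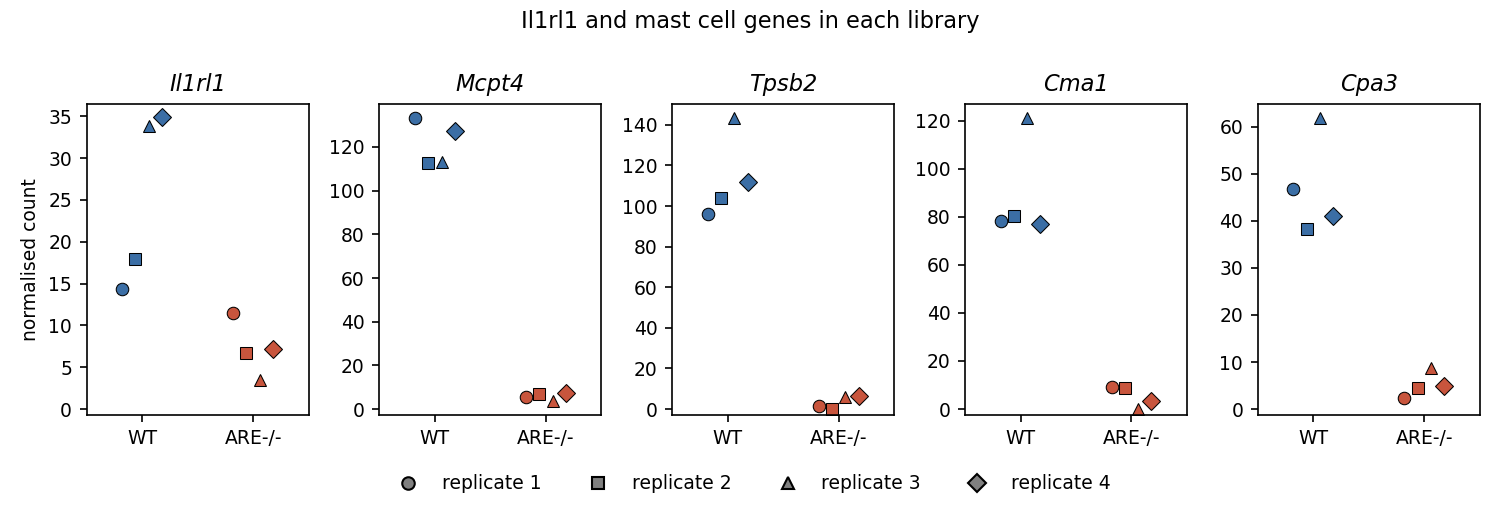
Normalised counts (vertical axes, linear) of Il1rl1 and of the mast cell protease genes Mcpt4, Tpsb2, Cma1 and Cpa3 in each WT and ARE-/- heart; symbols mark the replicate number. The protease genes are near 0 in all 4 ARE-/- hearts, while Il1rl1 keeps 3.51 to 11.4 normalised counts there and splits into 2 lower and 2 higher WT hearts.

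Profiles most like each stress gene were sought among 3083 listed protein-coding genes with a mean of 100 or more. Likeness was Pearson's r of log2 values over the 8 libraries, with r of the deviations from the group means in brackets, since the gap between genotypes sets much of the first value. Nearest to Rcan1 were the interferon-induced modifier Isg15 (r = 0.995, within groups 0.858) and the proteasome activator genes Psme2b and Psme1. Nearest to Nppb were Ly6a (0.995, within groups 0.979) and the myeloid genes Mnda and C3ar1. Ankrd1 was nearest to Fuca2 (0.993, within groups 0.977), Adamtsl2 and Myh7 (0.987, within groups 0.956). Mthfd2 was nearest to Wisp2 (0.996, within groups 0.969), Acer2 and Pold4, and Gdf15 to Tbc1d9 (0.991, within groups 0.841), Adc and Sh3bp2. Tnc was nearest to Tgfbi (0.989, within groups 0.898), Klrk1 and H3f3b, Nppa to Zbtb8os (0.964, within groups 0.898), Rpl30 and Gm10800, and Il1rl1 to Trim10 (0.959, within groups 0.850), Lancl2 and Abcb1a. Within ARE-/-, a high value in replicate 1 weighs on all of these except those of Rcan1, which had no such value. The within-group r of Rcan1 rests mostly on WT hearts. Its log2 values over the WT mean ran from -0.24 in WT replicate 3 to 0.17 in WT replicate 1. In ARE-/- hearts they ran only from 1.09 to 1.17.

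Per length, the 8 genes covered a wide span and their order changed between groups. In WT the mean FPKM fell from Ankrd1 (599 ± 90.6, SD, n = 4) and Nppb (539 ± 41.9) to Nppa (45.5 ± 12.3) and Rcan1 (39.9 ± 4.22), and on to Mthfd2 (1.19 ± 0.246), Gdf15 (0.602 ± 0.227), Il1rl1 (0.284 ± 0.126) and Tnc (0.197 ± 0.0883). The mean ± SD ranges of Ankrd1 and Nppb, of Nppa and Rcan1, and of Il1rl1 and Tnc overlapped. In ARE-/- the order was Ankrd1 (2263 ± 1663), Nppb (1414 ± 594), Nppa (139 ± 84.9), Rcan1 (100.3 ± 7.67), Gdf15 (9.83 ± 4.98), Mthfd2 (5.15 ± 2.51), Tnc (2.21 ± 1.23) and Il1rl1 (0.0956 ± 0.0528). The mean ± SD ranges of Ankrd1 and Nppb, and of Nppa and Rcan1, again overlapped, though Ankrd1 exceeded Nppb in every ARE-/- heart. Gdf15 exceeded Mthfd2 and Tnc exceeded Il1rl1 in every ARE-/- heart, while Mthfd2 exceeded Gdf15 in every WT heart. The authors' deposited enrichment table names 1 or more of the 8 genes in 189 of its 2065 Gene Ontology terms, and no term names more than 3 of them. Mthfd2, Rcan1, Tnc and Nppa overlap another annotated gene. Gm43890 lies on the same strand as Mthfd2, while Gm46555, 8030451A03Rik and Gm13054 lie opposite Rcan1, Tnc and Nppa. The sources used here do not say whether counting used strand or how it treated overlaps. Reads of these overlapping genes therefore cannot be told apart.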

How the data were processed

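The submitters' processing notes name STAR, DESeq2 and mm10 without versions, and the read counter is not named in the sources used here. Per the file headers, the deposited gene table has read counts for each gene in each library, FPKM by the authors and, for each group, a normalised signal in which the authors averaged counts after scaling by size factors. The log2 fold changes, p-values and adjusted p-values in it are the authors' DESeq2 results, deposited for called genes only. Genes outside it were not analysed here. Size factors were solved from the deposited group means, and library totals from counts, FPKM and gene lengths. The 8 genes, the gene lists and the tests were chosen with earlier results of these data known. Genes named from a pathway list are the 3 with the smallest adjusted p by the authors. Other list genes, Traf6 among them, and the marker genes were named after their values were seen, and genes named for likeness are the 3 with the highest r. Exact permutation tests, two-sided, were run on single values (scipy 1.17.1) and also on the summed counts of each list, where no p is used.

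Refits on the listed genes, tested on simulated data, were alternatives only, with p-values adjusted for 19606 genes. They used edgeR 4.0.16 (quasi-likelihood), limma 3.58.1 and DESeq2 1.42.0 in R 4.3.3. TMM factors, DESeq2's own size factors and GC offsets were estimated from the listed genes alone, all of them called genes. Alternatives were the test, scaling by TMM or library totals, a replicate block, GC offsets, leaving out libraries, stricter thresholds, a minimum count, the offset of 0.5 and FPKM. Added after seeing the data were the sum of the 3 close libraries of each group and the values without ARE-/- replicate 1. Promoters are the 250 bases before each of 12 RefSeq starts of the 8 genes. The motifs sought on both strands were AGATAA and TGATAA for GATA factors, GGAATG for TEAD, GGAAA for NFAT, TGATGNAA for ATF4, TGANTCA for AP-1 and, by name alone, the interferon-stimulated response element. Positions are those of the deposited table in mm10.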

Additional observations from a re-analysis of the deposited data

Results flagged for a closer look

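Among 26 groups of 4 libraries tested for a library far from the others, 5 were flagged, and chance flags about 1 in 20 groups. The measure is the gap of the outermost library to its neighbour as a share of the group's range, and a flag means that it passed Dixon's critical value. ARE-/- replicate 1 lay far above its group for Ankrd1 (0.975) and for Nppb (0.946). The same library was far above its group in the summed fibroblast markers (0.847) and in the summed macrophage and monocyte markers (0.893). WT replicate 3 was far above the other WT hearts in the summed macrophage and monocyte markers (0.883). No library was flagged in either group for Rcan1, Gdf15, Mthfd2, Tnc, Il1rl1 or Nppa.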

How the results depend on the processing

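Of 18 alternatives for each of the 8 genes none turned a direction, and the calls of Gdf15 and Tnc held in all that gave a test. With the 3 close libraries summed within each group, the refit left 2 of the 7 rises called and 0 falls, with log2 fold changes of 2.15 for Mthfd2, 1.19 for Rcan1, -1.77 for Il1rl1, 1.73 for Nppa, 1.41 for Nppb and 2.15 for Ankrd1, none of them past the threshold. That fit has only 2 against 2 samples. GC offsets ended the calls of Il1rl1 (-1.32) and Nppa (0.93), so that 0 falls were called. FPKM with an offset of 0.1 moved Rcan1 to 1.33 and Il1rl1 to -0.95. Il1rl1 averaged only 0.284 FPKM in WT and 0.0956 FPKM in ARE-/- hearts, so this offset draws its value towards 0. Leaving out 1 library at a time gave -2.12 to -1.57 for Il1rl1, 0.98 to 1.57 for Nppa and 0 to 1 called falls. Over all pathway lists 61 rises and 26 falls were called. The rises were 38 with TMM, 24 with DESeq2's own size factors, 35 with GC offsets, 19 at a minimum of 2-fold, 6 with close libraries summed and 33 to 58 with 1 library left out. The falls were 13 with library totals, 15 with GC offsets, 8 at a minimum of 2-fold, 1 with close libraries summed and 18 to 26 with 1 library left out. The 2-fold minimum is a stricter cut, and fits with libraries left out or summed had fewer samples. TMM, DESeq2's own size factors and GC offsets were estimated from the called genes alone. The part of this choice of genes in the shifts was not tested. Rises made up 52.1% of the calls with the authors' size factors, 42.1% with TMM, 70.7% with library totals and 35.9% with DESeq2's own size factors. The median log2 fold change of the listed genes was 0.45, 0.31, 0.64 and 0.10 in that order. No sign of pairing by replicate number was seen: same-numbered libraries deviated with correlations of 0.0064, 0.044, -0.17 and 0.27 over 3138 genes. Differently numbered ones had -0.31 to 0.28. Deviations from means of 4 libraries cannot exclude pairing. With the replicate number as a block 3464 genes were called, against 4292 without it, all 8 stress genes stayed called, and the adjusted p of Il1rl1 was 0.0495 (edgeR). Il1rl1 rests on 4 to 35 reads a library, which limits its precision.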
